A study of Homo sapiens with 2 samples.

Results

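The endoplasmic reticulum (ER) folds the proteins that enter it through a set of resident chaperones and enzymes, and the messages of 34 such genes are described here. The members were listed by symbol and matched by Ensembl gene ID, ERO1A and ERO1B also under their older symbols ERO1L and ERO1LB. All 34 were found among the 57820 gene IDs of the deposited counts, and all 34 reached the level of 1 CPM, a read count set relative to the scaled library size, at which a gene is called measured. They were sorted by role into 5 groups: 11 genes of the Hsp70 and Hsp90 system, 4 of the lectin cycle, 11 disulfide isomerases and oxidases, 6 prolyl isomerases and the CRELD pair.

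The study compared cells of HEK293T, a cell line of human embryonic kidney origin, given an siRNA against SRα with cells of the same line given a control siRNA, and sequenced their polyadenylated RNA. SRα, encoded by SRPRA, is a subunit of the ER receptor that takes over ribosomes from the signal recognition particle, through which most of these folding factors themselves enter the ER. There was 1 library per condition, so no test between conditions was possible, no difference has a replicate check, and every interval below covers counting error only. In such bulk RNA a lower level may come from fewer expressing cells or from less RNA per cell, which cannot be told apart.

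Proteins enter the ER unfolded. BiP, the Hsp70 chaperone of the ER, binds exposed hydrophobic stretches under the control of J proteins and nucleotide exchange factors, calnexin and calreticulin hold glycoproteins by their sugars, and disulfide isomerases and prolyl isomerases catalyse the slow steps of folding. When unfolded proteins build up, the unfolded protein response (UPR) raises the transcription of many of these genes through ATF6 and XBP1. Those factors act, together with the general factor NF-Y, on short promoter sequences named ERSE and ERSE-II, for ER stress response element.

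Reads assigned to genes numbered 3896721 in the SRα siRNA library and 2445200 in the control siRNA library. How long the siRNAs acted is not given in the sources used here. The targeted gene SRPRA stood at 117 CPM with SRα siRNA and 205 CPM with control siRNA, a log2 ratio of -0.81 (95% counting interval -0.998 to -0.625), while SRPRB, the other receptor subunit, had -0.07 (-0.23 to 0.09). Of 7 genes listed as marking this line, 5 were matched and 4 reached 1 CPM, led by VIM, and PAX8 had 0 reads in both libraries. Of 14 matched markers of blood, liver, skin, connective tissue, vessels and gland cells, 9 had 0 reads in both libraries, and their summed level was 12.7 CPM with SRα siRNA and 14.5 CPM with control siRNA.

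The promoters of the members were searched for ERSE and ERSE-II after the ratios were seen. Both elements are known from genes of this kind, as said above, so their share among the members is a description and not a test. RefSeq windows of GRCh38.p14, from 250 bases before to 50 after an annotated start, were present for 31 of the 34 members. PDIA3, FKBP10 and FKBP14 had none. ERSE was searched as CCAAT, any 9 bases and CCACG, and ERSE-II as ATTGG, any 1 base and CCACG, on both strands and with no mismatch allowed. ERSE stood in the windows of 7 of these 31 members, 22.6%, against 25 of all 27305 genes in the table, 0.0916%. ERSE-II stood in 2 members, HYOU1 and SDF2L1, against 19 of all genes. A match is a description of the letters, not evidence of a bound factor, and members with several annotated starts had several windows.

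The sites are shown because their carriers include the most abundant messages of the group and several of the lower ratios given below. Each is printed on the strand on which the motif reads forward, with the fixed letters of the motif in capitals and 29 bases in all.
HSPA5, chr9:125241386-125241414: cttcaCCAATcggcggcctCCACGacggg
HSP90B1, distal site, chr12:103930211-103930239: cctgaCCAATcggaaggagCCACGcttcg
HSP90B1, proximal site, chr12:103930316-103930344: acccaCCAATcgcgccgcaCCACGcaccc
CALR, chr19:12938379-12938407: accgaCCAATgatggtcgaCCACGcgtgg
CANX, chr5:179698773-179698801: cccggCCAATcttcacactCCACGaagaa
PDIA6, chr2:10812848-10812876: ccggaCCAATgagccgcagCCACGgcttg
CRELD2, chr22:49918549-49918577: atggcCCAATccgagttcgCCACGagagg
ERO1B, chr1:236282178-236282206: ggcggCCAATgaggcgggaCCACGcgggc
HYOU1, proximal ERSE-II, chr11:119057265-119057293: cgcgtactcATTGGaCCACGtcccaggcc
HYOU1, distal ERSE-II, chr11:119057371-119057399: cggcctgggATTGGaCCACGtcacggggc
SDF2L1, ERSE-II, chr22:21642105-21642133: agggttttgATTGGtCCACGcttccgagg
Another element, the XBP1-binding UPRE searched as TGACGTGG, stood in HYOU1, DNAJC10 and TXNDC5, 3 of 31 members against 253 of all 27305 genes, and in HYOU1 it overlapped the distal ERSE-II.

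The whole 250 bases upstream of the start are given for HSPA5, which encodes BiP, for HSP90B1, which has 2 ERSE copies in opposite orientations, and for HYOU1, which has 2 ERSE-II copies. They run 5′ to 3′ in the direction of the gene, with the fixed letters of ERSE and ERSE-II in capitals.
HSPA5, chr9:125241344-125241593, minus strand: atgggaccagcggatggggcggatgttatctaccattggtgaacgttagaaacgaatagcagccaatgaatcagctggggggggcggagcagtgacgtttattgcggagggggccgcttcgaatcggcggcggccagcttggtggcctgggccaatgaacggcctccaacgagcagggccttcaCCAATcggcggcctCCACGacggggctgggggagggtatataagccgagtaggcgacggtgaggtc
HSP90B1, chr12:103930160-103930409, plus strand: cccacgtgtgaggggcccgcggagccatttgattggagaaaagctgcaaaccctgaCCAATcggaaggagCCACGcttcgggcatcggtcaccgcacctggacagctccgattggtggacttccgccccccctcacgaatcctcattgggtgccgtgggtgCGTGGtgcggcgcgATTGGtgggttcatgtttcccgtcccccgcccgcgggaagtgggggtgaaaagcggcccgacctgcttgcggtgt
HYOU1, chr11:119057206-119057455, minus strand: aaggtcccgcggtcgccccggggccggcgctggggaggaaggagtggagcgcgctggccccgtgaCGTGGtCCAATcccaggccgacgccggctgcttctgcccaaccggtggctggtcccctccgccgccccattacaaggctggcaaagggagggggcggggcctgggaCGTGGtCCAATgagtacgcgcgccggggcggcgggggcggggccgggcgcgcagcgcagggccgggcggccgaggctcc
In HSPA5 the near end of the ERSE lay 48 bases upstream of the annotated start. In HYOU1 the near ends of the 2 ERSE-II copies lay 69 and 175 bases upstream.

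The 34 messages took 3.01% of gene reads in the SRα siRNA library (exact 95% interval 2.99 to 3.02) and 3.27% in the control siRNA library (3.25 to 3.29). With libraries scaled by TMM, the log2 ratio of the summed reads, 117161 with SRα siRNA and 79916 with control siRNA, was -0.08 (-0.10 to -0.07). The summed reads weigh the most abundant genes. The 5 most-read members, CALR, CANX, HSP90B1, HSPA5 and P4HB, held 66.1% of the members' reads with SRα siRNA and 65.5% with control siRNA. Without HSPA5 the summed log2 ratio was -0.07 (-0.08 to -0.06).

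**Figure D1:**
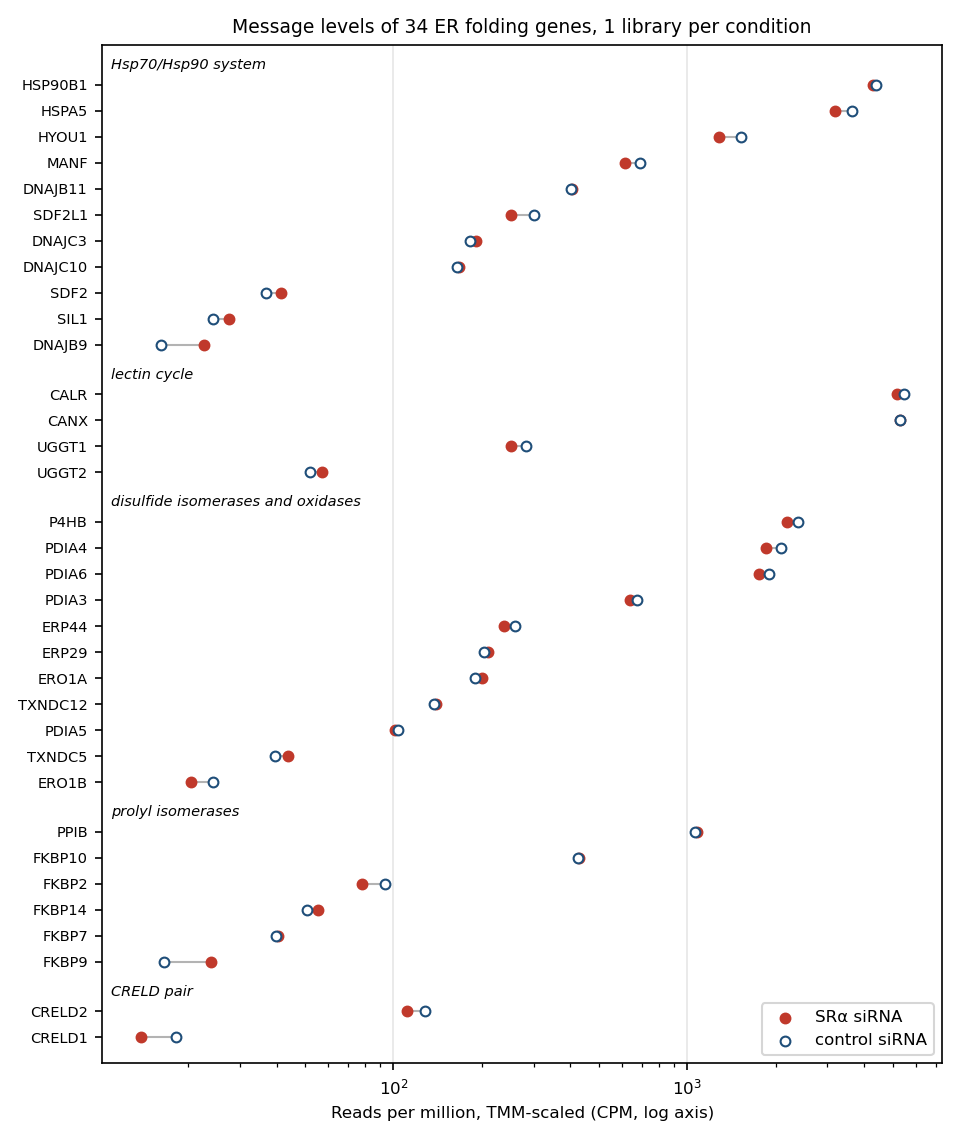
Level of each of the 34 members in CPM (log axis) in the SRα siRNA library (filled) and the control siRNA library (open), sorted by role and level. Levels ran from 16.0 to 5310 CPM as means of both libraries, and the 2 points of most members lie close together.

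Per gene, differences were small. A gene is said below to lie below or above 0 where its whole counting interval does. Counting intervals lay below 0 for 11 of the 34 members and above 0 for 0. Over all 12747 genes of at least 1 CPM the shares were 3.39% below and 5.46% above. Depth narrows an interval, and the members were well read, so the same shares are given for better-read genes. Of the 26 members of at least 50 CPM 11 lay below 0, where the background was 4.89% below and 11.7% above. Of 9 members of at least 1000 CPM 7 lay below 0, and they are 7 of the 17 such genes among all 90 at that level (18.9% below, 38.9% above).

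By size, 1 member, CRELD1, was lower with SRα siRNA by at least 20%, and 2, DNAJB9 and FKBP9, were higher by at least 25%, all from 92 or fewer reads per library. The background at 1 CPM was 15.1% lower and 14.5% higher. At 50 CPM 0 of 26 members passed those sizes in either direction, against 1.42% lower and 2.27% higher over all genes, and at 1000 CPM 0 of 9, against 1.11% lower and 3.33% higher. The median log2 ratio was -0.02 over the 34 members and 0.01 over all measured genes, or -0.06 over the 26 members and 0.04 over all 4007 genes of at least 50 CPM. Ratios below 1 were found for 17 of 34 members, against 48.6% of all measured genes, and ratios above 1 for the other 17, against 51.4%. At 50 CPM 15 of 26 members had ratios below 1 (background 40.1%), and at 1000 CPM 7 of 9 (background 36.7%). Scaling by library totals gave 24 of 34 below 1 and 10 above, and DNAJB11, DNAJC10, CANX, TXNDC12, PPIB, FKBP7 and FKBP10, all close to 0, turned below it.

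**Figure D2:**
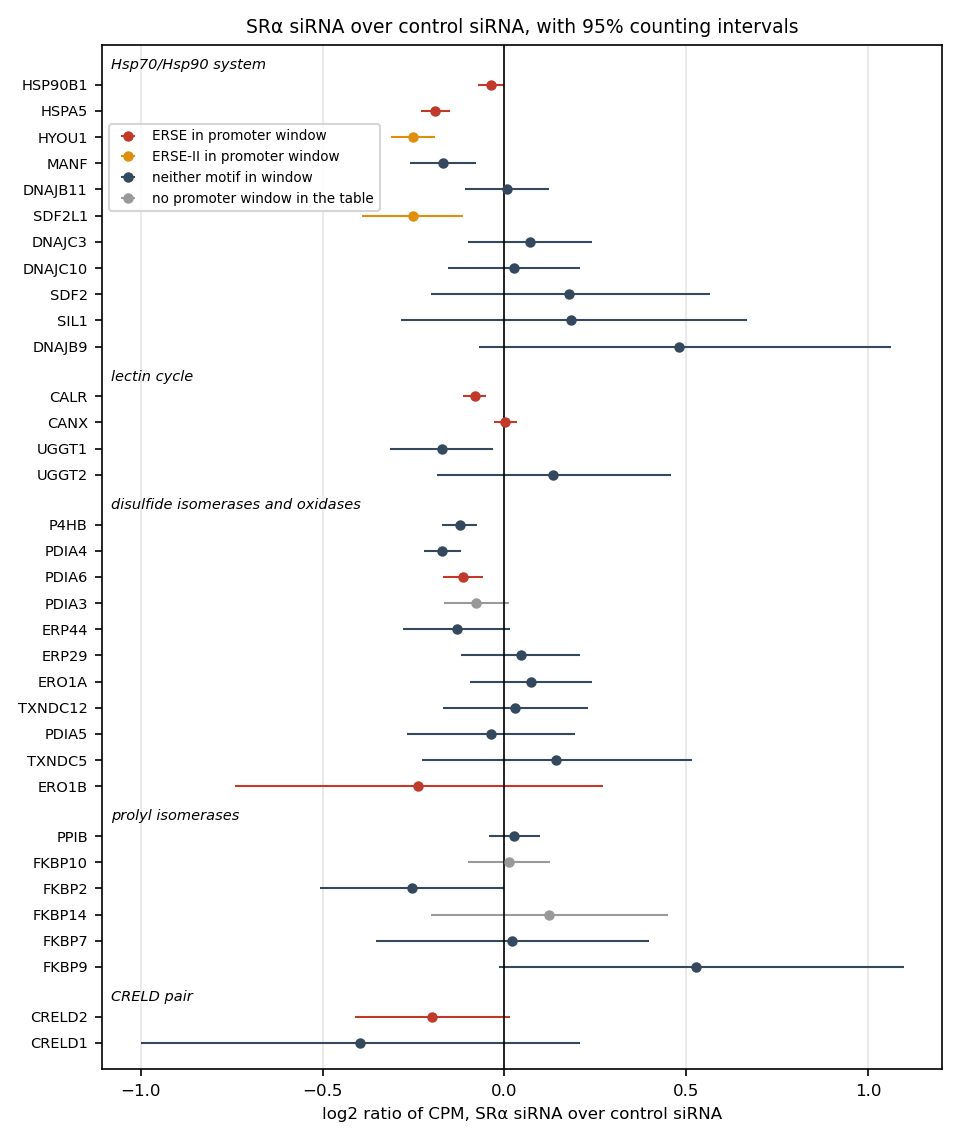
Log2 ratio of CPM, SRα siRNA over control siRNA, for each of the 34 members by role, with 95% counting intervals as bars and colour for the promoter motif. The 11 intervals that lie wholly below 0 include those of HSPA5, HYOU1, SDF2L1, PDIA4 and P4HB, and 0 lie wholly above it.

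Within the Hsp70 and Hsp90 system, BiP itself, its exchange factor HYOU1 and its partners MANF and SDF2L1 were lower in the SRα siRNA library, while the interval of no J protein excluded 0. HSPA5 (ENSG00000044574.7) had 12256 reads, or 3185 CPM, with SRα siRNA and 8996 reads, or 3633 CPM, with control siRNA. Its log2 ratio was -0.19 (-0.23 to -0.15), a level 12.3% lower. HYOU1 (ENSG00000149428.14), the large Hsp70-like protein that exchanges the nucleotide of BiP, had 4926 reads (1280 CPM) with SRα siRNA and 3774 reads (1524 CPM) with control siRNA. Its log2 ratio was -0.25 (-0.31 to -0.19), a level 16.0% lower, below all but 3.47% of the genes of at least 50 CPM.

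MANF, a secreted neurotrophic factor that also binds BiP, had 2362 reads (614 CPM) with SRα siRNA and 1710 reads (691 CPM) with control siRNA, a log2 ratio of -0.17 (-0.26 to -0.08). SDF2L1, which works with the J protein DNAJB11 on BiP substrates, had 969 reads (252 CPM) with SRα siRNA and 743 reads (300 CPM) with control siRNA, a log2 ratio of -0.25 (-0.39 to -0.11). HSP90B1, the Hsp90 chaperone of the ER (GRP94), had 16449 reads (4275 CPM) with SRα siRNA and 10857 reads (4384 CPM) with control siRNA. At -0.04 (-0.07 to -0.0014) its interval barely cleared 0, and with DESeq2 size factors it reached 0.0035. With library totals the ratio was -0.07 (-0.11 to -0.04), and with the GC trend removed -0.09 (-0.13 to -0.06).

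The J proteins, which deliver substrates to BiP and set off its ATP hydrolysis, showed no difference detectable at this depth. DNAJB11 had 1557 reads (405 CPM) with SRα siRNA and 997 reads (403 CPM) with control siRNA, and its log2 ratio of 0.01 had an interval of -0.11 to 0.12. DNAJC3, which also inhibits the kinase PERK, had 0.07 (-0.10 to 0.24) from 737 reads with SRα siRNA and 452 with control siRNA, and DNAJC10, a J protein that reduces disulfides, had 0.03 (-0.16 to 0.21) from 644 reads with SRα siRNA and 407 with control siRNA. DNAJB9, a target of the UPR that represses the sensor IRE1, had the highest ratio of the group, 0.48 (-0.07 to 1.06), from 87 reads with SRα siRNA and 40 with control siRNA. SIL1, another exchange factor of BiP, had 0.18 (-0.29 to 0.67), and SDF2, the paralog of SDF2L1, had 0.18 (-0.20 to 0.57). Over the 11 genes, 5 lay below 0 (background at 1 CPM 3.39%) and 0 above (5.46%). At 50 CPM or more 5 of 8 lay below 0 (background 4.89%), and at 1000 CPM 3 of 3 (background 18.9%). The summed reads of all 11 were 40253 with SRα siRNA and 28127 with control siRNA, a log2 ratio of -0.12 (-0.14 to -0.10). The median of the 8 genes of at least 50 CPM was -0.10. The median of 0.01 over all 11 turned to -0.029 with library totals, -0.026 with the mitochondrial and 10 most-read genes left out of the totals, and -0.045 with the GC trend removed.

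In the lectin cycle, the soluble lectin CALR was lower by a small amount and its membrane-bound relative CANX was level, an order that turned round with the GC trend removed. CALR had 19854 reads (5160 CPM) with SRα siRNA and 13519 reads (5459 CPM) with control siRNA, a log2 ratio of -0.08 (-0.11 to -0.05) that was -0.04 (-0.07 to -0.0064) with the GC trend removed. CANX had 20392 reads (5300 CPM) with SRα siRNA and 13097 reads (5289 CPM) with control siRNA, a log2 ratio of 0.00 (-0.03 to 0.03) that was -0.03 with library totals and -0.05 with the GC trend removed, with intervals then below 0. The ratio of CALR to CANX reads was 0.974 with SRα siRNA and 1.03 with control siRNA, a log2 difference of -0.08 (-0.13 to -0.04) that became 0.02 (-0.03 to 0.06) with the GC trend removed. UGGT1, the enzyme that puts glucose back on misfolded glycoproteins so that the lectins bind them again, had 965 reads (251 CPM) with SRα siRNA and 700 reads (283 CPM) with control siRNA, a log2 ratio of -0.17 (-0.31 to -0.03). Its paralog UGGT2 had 0.13 (-0.19 to 0.46) from 220 reads with SRα siRNA and 129 with control siRNA.

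Among the disulfide isomerases and oxidases, the 3 most abundant isomerases were lower, and the smaller thioredoxin-domain proteins and the oxidases did not differ detectably. P4HB, the founding protein disulfide isomerase and a subunit of prolyl 4-hydroxylase, had 8441 reads (2194 CPM) with SRα siRNA and 5913 reads (2388 CPM) with control siRNA, a log2 ratio of -0.12 (-0.17 to -0.07). PDIA4 had 7110 reads (1848 CPM) with SRα siRNA and 5149 reads (2079 CPM) with control siRNA, a log2 ratio of -0.17 (-0.22 to -0.12). PDIA6, which also tempers the sensor IRE1, had 6752 reads (1755 CPM) with SRα siRNA and 4702 reads (1899 CPM) with control siRNA, a log2 ratio of -0.11 (-0.17 to -0.06). These 3 are the isomerases of over 1000 CPM.

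PDIA3, the isomerase that calnexin and calreticulin recruit to glycoproteins, had -0.08 (-0.17 to 0.01) from 2466 reads with SRα siRNA and 1674 with control siRNA, and ERP44, which retains ERO1 oxidases in the early secretory pathway, had -0.13 (-0.28 to 0.02) from 912 reads with SRα siRNA and 643 with control siRNA. Both of these intervals lay below 0 with library totals and with the GC trend removed. ERO1A, the main oxidase that recharges P4HB, had 768 reads (200 CPM) with SRα siRNA and 470 reads (190 CPM) with control siRNA, a log2 ratio of 0.07 (-0.09 to 0.24), and its paralog ERO1B had -0.24 (-0.74 to 0.27) from 79 reads with SRα siRNA and 60 with control siRNA. ERP29, a thioredoxin-like protein without the isomerase active site, had a log2 ratio of 0.04 (-0.12 to 0.21) from 806 reads with SRα siRNA and 503 with control siRNA. TXNDC12, a small thioredoxin-domain protein, had 0.03 (-0.17 to 0.23) from 539 reads with SRα siRNA and 340 with control siRNA. PDIA5 had -0.04 (-0.27 to 0.20) from 389 reads with SRα siRNA and 257 with control siRNA. TXNDC5 had 0.14 (-0.23 to 0.52), and 60.6% of its exon bases are shared with the readthrough gene BLOC1S5-TXNDC5, which is listed at 0 reads in both libraries, so its level is uncertain. Over the 11 genes, 3 lay below 0 (background at 1 CPM 3.39%) and 0 above (5.46%), with a median of -0.08. At 50 CPM or more 3 of 9 lay below 0 (background 4.89%). These 3 are the genes of over 1000 CPM, where the background was 18.9% below 0 and 38.9% above.

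Among the prolyl isomerases the most abundant member was level and 1 of the less abundant ones was lower. PPIB (cyclophilin B), which acts on collagen and many other clients, had 4155 reads (1080 CPM) with SRα siRNA and 2624 reads (1060 CPM) with control siRNA, a log2 ratio of 0.03 (-0.04 to 0.10) that was slightly below 0 with library totals. FKBP10, a collagen chaperone, had 1648 reads (428 CPM) with SRα siRNA and 1052 reads (425 CPM) with control siRNA, a log2 ratio of 0.01 (-0.10 to 0.12). FKBP2 had 301 reads (78.2 CPM) with SRα siRNA and 231 reads (93.3 CPM) with control siRNA, and its interval of -0.51 to -0.00035 around -0.25 extended above 0 with DESeq2 size factors and with the GC trend removed. FKBP14 had 0.12 (-0.20 to 0.45) from 213 reads with SRα siRNA and 126 with control siRNA and FKBP7 0.02 (-0.35 to 0.40). FKBP9 had the highest ratio of all members, 0.53 (-0.02 to 1.10), from 92 reads with SRα siRNA and 41 with control siRNA. Of the 6 genes 1 lay below 0 (background at 1 CPM 3.39%), or 1 of the 4 of at least 50 CPM (background 4.89%). The median of 0.02 over all 6 was -0.013 with library totals.

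The CRELD pair, epidermal growth factor-like ER proteins of which CRELD2 is a known target of ER stress, had ratios below 1 in both members. CRELD2 had 429 reads (111 CPM) with SRα siRNA and 317 reads (128 CPM) with control siRNA, a log2 ratio of -0.20 (-0.41 to 0.01). CRELD1 had 53 reads with SRα siRNA and 45 with control siRNA, a log2 ratio of -0.40 (-1.001 to 0.21). Neither interval excluded 0, but that of CRELD2 lay below 0 with library totals (-0.45 to -0.02) and with mitochondrial and the most-read genes left out of those totals (-0.45 to -0.02). It held 0 with DESeq2 size factors (-0.41 to 0.02) and with the GC trend removed (-0.36 to 0.06). The summed reads of the pair, mostly of CRELD2, were 482 with SRα siRNA and 362 with control siRNA. Their log2 ratio was -0.22 (-0.42 to -0.02) with TMM scaling and was not computed with the GC trend removed.

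Per length of exon, the order of levels was led by the same genes in both libraries. CALR was first, at 1901 RPKM (CPM per kilobase of exon) with SRα siRNA and 2012 with control siRNA. HSP90B1 followed at 911 with SRα siRNA and 934 with control siRNA, then HSPA5 at 815 with SRα siRNA and 930 with control siRNA, and CANX at 850 with SRα siRNA and 848 with control siRNA. HSPA5 and CANX thus stood in the opposite order in the 2 libraries. FKBP9, ERO1B and CRELD1 were at the foot, at 3.20 to 4.81 in either library. Lengths are merged exons of GENCODE 29, not of the annotation the reads were counted on, so these levels are approximate.

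Pairs of related genes were compared within each library, 14 pairs in all, 8 between ER genes and 6 between an ER gene and a cytosolic counterpart. Such a difference does not depend on library scaling but can move with GC content. Its exact interval excluded 0 in 2 of the 8 ER pairs, CALR with CANX and SDF2L1 with SDF2, and in 4 of the 6 others. With the GC trend removed it did so in 0 of the 8 ER pairs and in 4 of the 6 others. SDF2L1 had 6.06 reads per read of SDF2 with SRα siRNA and 8.16 with control siRNA, a log2 difference of -0.43 (-0.84 to -0.02), or -0.33 (-0.74 to 0.08) with the GC trend removed. UGGT1 against UGGT2 gave -0.31 (-0.66 to 0.05), ERO1B against ERO1A -0.31 (-0.84 to 0.23) and CRELD2 against CRELD1 0.20 (-0.45 to 0.84). DNAJB9 against DNAJB11 gave 0.48 (-0.09 to 1.07), FKBP9 against FKBP10 0.52 (-0.04 to 1.10) and FKBP7 against FKBP14 -0.10 (-0.60 to 0.40).

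Against cytosolic counterparts 4 of 6 differences lay below 0. The counterparts in these 4 had ratios above 1 with TMM scaling, though the interval of HSP90AA1 held 0. How such a difference divides between its 2 genes depends on library scaling. HSPA8 itself had a log2 ratio of 0.21 (0.15 to 0.26), HSPH1 0.23 (0.13 to 0.33), HSP90AB1 0.07 (0.03 to 0.12) and HSP90AA1 0.03 (-0.01 to 0.08). HSPA5 had 1.67 reads per read of HSPA8, the constitutive cytosolic Hsp70, with SRα siRNA and 2.20 with control siRNA, a log2 difference of -0.40 (-0.47 to -0.33). HYOU1 had 2.11 reads per read of HSPH1, its cytosolic relative and a pair added to the naming rule, with SRα siRNA and 2.94 with control siRNA, a difference of -0.48 (-0.59 to -0.36). HSP90B1 differed from HSP90AA1 by -0.07 (-0.13 to -0.02) and from HSP90AB1 by -0.11 (-0.16 to -0.06). PPIB, at 0.03, differed from PPIA, at 0.33, by -0.30 (-0.78 to 0.16) and FKBP2 from FKBP1A by 0.10 (-0.65 to 0.85), and PPIA and FKBP1A both have near-identical copies and few reads, 119 of PPIA with SRα siRNA and 61 with control siRNA, 40 of FKBP1A with SRα siRNA and 33 with control siRNA. HSPA8 and the cytosolic Hsp90 genes also have processed copies, and since only unique alignments were counted their levels are uncertain too.

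**Figure D3:**
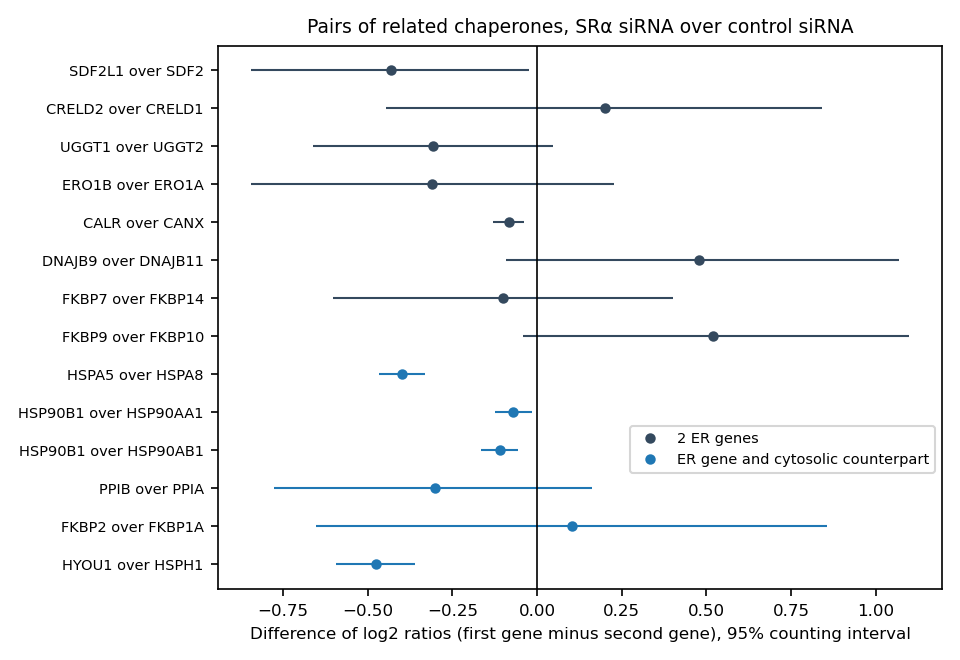
Difference of log2 ratios (SRα siRNA over control siRNA) between the first and the second gene of 14 pairs, with exact 95% counting intervals as bars. HSPA5 over HSPA8 at -0.40 and HYOU1 over HSPH1 at -0.48 lie farthest from 0 among the narrow intervals.

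Over the list of 55 cytosolic and mitochondrial chaperones, 51 were measured, with a median log2 ratio of 0.08. Of their intervals 0 lay below 0 (background 3.39%) and 15 above (background 5.46%). The others, HSPA1A, HSPA1B, DNAJA4 and PFDN6, named here outside the naming rule, had 0 reads in both libraries. Since only unique alignments were counted, this does not show that they were silent. Of the 43 at 50 CPM or more, 15 lay above 0 (background 11.7%) and 37 had ratios above 1 (background 59.9%). The 2 highest ratios of at least 20 CPM in the list were PPIA at 0.33 (-0.13 to 0.80) and the mitochondrial chaperonin HSPD1 at 0.29 (0.21 to 0.38), and the 2 lowest were the small heat shock protein HSPB1 at -0.25 (-0.70 to 0.20) and the prefoldin subunit PFDN1 at -0.24 (-0.48 to 0.01). The median GC content of the 43 was 44.7% and that of the 26 ER members 46.7%.

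**Figure D4:**
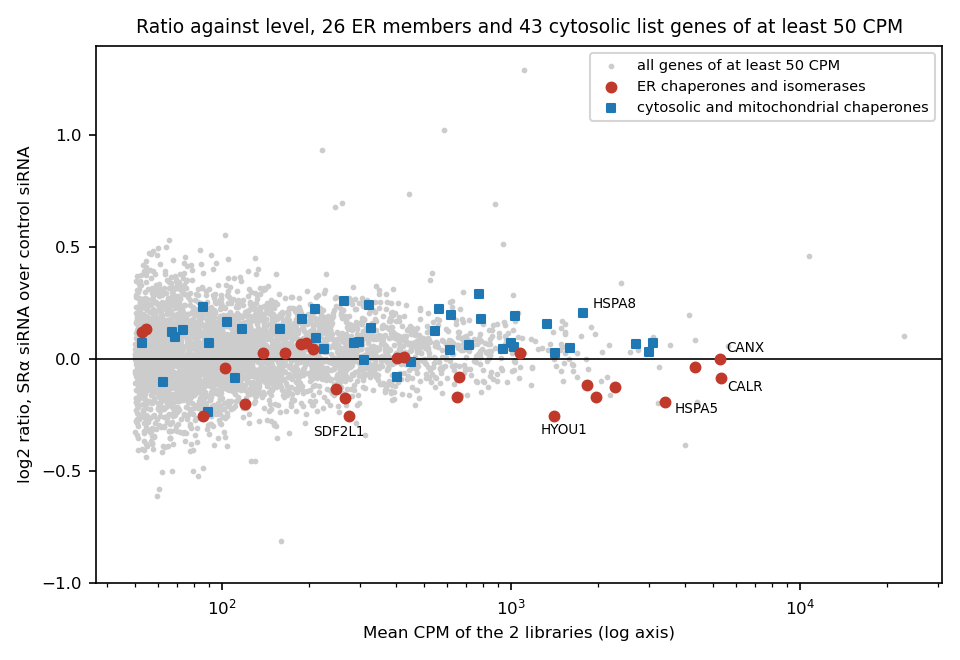
Log2 ratio, SRα siRNA over control siRNA, against mean CPM (log axis) for all 4007 genes of at least 50 CPM (grey), the 26 ER members (circles) and the 43 genes of the cytosolic and mitochondrial list (squares). From about 1000 CPM upward, 7 of 9 ER members have intervals below 0 (background 18.9%). Of the 9 cytosolic and mitochondrial genes there, 5 have intervals above 0 (background 38.9%). With TMM scaling all 9 have ratios above 1 (background 63.3%). The lowest of these log2 ratios is 0.026, and library totals moved the median of all genes by -0.036.

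Other genes of ER folding were taken from a list of 63, of which 54 were measured. Their median log2 ratio was -0.07, with 34 ratios below 1 (63.0%, background 48.6%) and 20 above. Of their intervals 6 lay below 0 (11.1%, background 3.39%) and 1 above (1.85%, background 5.46%). Of the 35 at 50 CPM or more, 21 had ratios below 1 (background 40.1%). At that level 5 intervals lay below 0 (background 4.89%) and 1 above (background 11.7%). By the naming rule the lowest were CNPY3, a chaperone of Toll-like receptors, at -0.56 (-1.10 to -0.04), and TOR1B at -0.30 (-0.75 to 0.15). The highest were TMX3, a membrane-bound disulfide isomerase, at 0.33 (0.06 to 0.61), and DNAJB14 at 0.29 (-0.15 to 0.75). KDELR2, a receptor that retrieves escaped ER proteins such as HSPA5 and CALR from the Golgi, had 514 reads (134 CPM) with SRα siRNA and 400 reads (162 CPM) with control siRNA, a log2 ratio of -0.27 (-0.47 to -0.08), and was named after its values were seen.

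The list of UPR sensors and factors, which also holds genes of ER-associated degradation such as HERPUD1, fell on both sides of 0. Of 20 genes 19 were measured, with a median of 0.02, 9 ratios below 1 (background 48.6%) and 10 above (51.4%). Of their intervals 2 lay below 0 (background 3.39%) and 1 above (5.46%). At 50 CPM or more 2 of 10 lay below 0 (background 4.89%) and 1 above (background 11.7%). ATF6B, the gene not measured, had 0 reads in both libraries. Since only unique alignments were counted, this does not show that it was silent. The highest by the naming rule were NFE2L2 at 0.44 (0.11 to 0.77) and EIF2AK3 (PERK) at 0.35 (-0.18 to 0.90). The lowest were CREB3 at -0.34 (-0.86 to 0.19) and the protease MBTPS1, which cleaves ATF6, at -0.31 (-0.67 to 0.05). ATF6 had 542 reads with SRα siRNA and 383 with control siRNA, a log2 ratio of -0.13 (-0.33 to 0.06). The 2 genes with intervals below 0 were ATF4, the factor translated when PERK is active, at -0.27 (-0.47 to -0.08), and CREB3L2, an ER-bound relative of ATF6, at -0.23 (-0.42 to -0.05). ATF6B, ATF6, ATF4 and CREB3L2 were named outside that rule after their values were seen. Splicing of XBP1 cannot be read from counts per gene.

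Members with a match to ERSE or ERSE-II had a lower median ratio than those with a window and no exact match. The 9 members with ERSE or ERSE-II had a median log2 ratio of -0.19, from -0.25 to 0.00, with 6 intervals below 0 (background at 1 CPM 3.39%). The 22 members with a window and neither motif had a median of 0.03 and 5 intervals below 0, those of MANF, UGGT1, P4HB, PDIA4 and FKBP2. That second median was -0.0097 with library totals, where the first was -0.23, and -0.0062 with the GC trend removed, where the first was -0.15. The carriers were read more deeply, with a median level of 1827 CPM against 152 CPM, and deeper reading narrows the intervals. Among members of over 1000 CPM the ratios of carriers and others overlapped. Carriers there were HYOU1 at -0.25, HSPA5 at -0.19, PDIA6 at -0.11, CALR at -0.08, HSP90B1 at -0.04 and CANX at 0.00. Those with neither motif were PDIA4 at -0.17, P4HB at -0.12 and PPIB at 0.03. The part of depth in these counts and medians was not tested. At 50 CPM or more the medians were -0.15 for 8 carriers and 0.01 for 15 others. Intervals below 0 at that level numbered 6 among the 8 carriers and 5 among the 15 others (background 4.89%). The members were chosen with ratios of several of them known, so this is a description.

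Outside the members, 28 genes of the counts had ERSE or ERSE-II in a window, and 19 of them were measured. Their median log2 ratio was -0.06, with 13 ratios below 1 (background 48.6%), 1 interval below 0 (background 3.39%) and 0 above (background 5.46%). For the 10 of at least 50 CPM the median was 0.00, against 0.04 for 3263 other genes at that level with a window and neither motif. XBP1 had 0.06 (-0.11 to 0.22) and HERPUD1, an ER-associated degradation factor induced by the UPR, 0.06 (-0.14 to 0.26). SERP1, a translocon-associated protein, had -0.12 (-0.30 to 0.05), and NUCB1, a calcium-binding Golgi protein, had 179 CPM with SRα siRNA and 212 CPM with control siRNA, -0.25 (-0.41 to -0.08). These 4 were named after their values were seen.

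GC content moved with the ratios. Across the 26 members of at least 50 CPM, the Spearman correlation of GC content with the log2 ratio was -0.61 (Pearson -0.63), and across 3958 genes at that level it was -0.28 (Pearson -0.28). Genes are not independent replicates, and these 2 libraries share every point. The 13 members at or above the median GC content of those genes had a median log2 ratio of -0.12, against 0.00 for all genes in that range, and the 13 members below it had 0.00, against 0.07. Removing the trend of all measured genes with GC content left HSPA5 at -0.22, HYOU1 at -0.20, SDF2L1 at -0.15, PDIA4 at -0.13 and P4HB at -0.05, and 13 of the 34 intervals then lay below 0 and 2 above, those of PPIB and FKBP9. The part of GC content in the ratios was not tested beyond this removal.

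**Figure D5:**
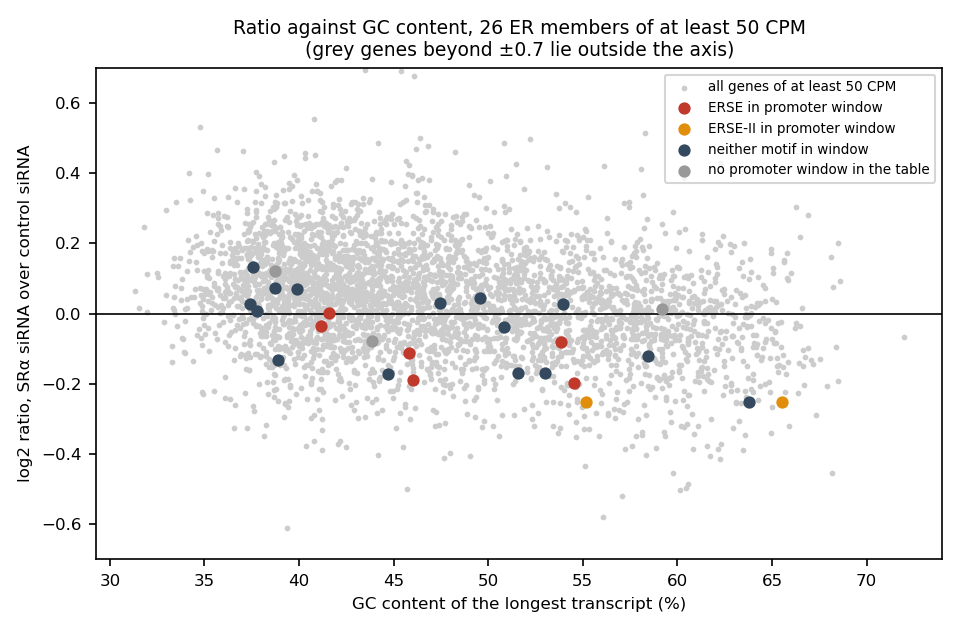
Log2 ratio, SRα siRNA over control siRNA, against GC content of the longest transcript (%) for the 26 members of at least 50 CPM, coloured by promoter motif, over all genes at that level in grey. SDF2L1 and FKBP2, the members of highest GC content, have log2 ratios of -0.25, and HSPA5 lies at -0.19 near the middle of the GC range.

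The pseudogenes found by a member's name, PDIA3P1, PDIA3P2, ERP29P1 and FKBP9P1, and CALR4P held at most 4 reads in either library. Copies under other names were not searched. Since only unique alignments were counted, such low counts do not show that the members with copies, among them FKBP9, lost no reads. Exon bases were shared with another gene in 20 of the 34 members, and over at least 20% of the exon length in 4 of them, PDIA6, PPIB, TXNDC12 and TXNDC5. TXNDC12 shares 36.1% of its exon bases with AL445685.3, which was not analysed here, and 13.8% with KTI12, which had 80 reads with SRα siRNA and 54 with control siRNA, both on the same strand, so its level is uncertain. The partners of PDIA6 and PPIB lie on the opposite strand, ATP6V1C2 and SNX22. ATP6V1C2 had 9 reads with SRα siRNA and 8 with control siRNA, and SNX22 had 21 with SRα siRNA and 11 with control siRNA, while PDIA6 had 6752 with SRα siRNA and 4702 with control siRNA and PPIB 4155 with SRα siRNA and 2624 with control siRNA.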

How the data were processed

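The authors deposited raw counts of reads for each Ensembl gene, 1 file for the SRα siRNA library and 1 for the control siRNA library. The labels' protocols name TRIzol extraction and a stranded mRNA kit. STAR 2.5.2b, cutadapt and build hg19 are listed in the submitters' processing notes. No source used here gives the counting program, its strand setting, the annotation release, the siRNA sequences or whether the libraries came from separate cultures. The 5 closing lines of each file name no gene and stayed out of library sizes. They include alignments that were not unique, 76.5% of all entries with SRα siRNA and 79.6% with control siRNA. Genes took 87.9% of the unique ones with SRα siRNA and 88.1% with control siRNA.

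Libraries were scaled by TMM (edgeR 4.0.16, R 4.3.3). Log2 ratios used a prior count of 0.5. Their 95% intervals are exact (Clopper-Pearson) from both counts given their sum, and pair differences used the conditional exact interval (scipy 1.17.1). Since PCR copies of a molecule are counted apart, these bounds hold for counting error alone. The procedure was also run on simulated counts that held counting error alone, so that run cannot show how the intervals hold between real libraries. Symbols came from a gene name table for 51996 of 57820 IDs. GENCODE 29 gave exon lengths and the GC content of the longest transcript by gene ID (98.8% of measured genes, all members). No hg19 coordinates are given, and those printed are RefSeq's on GRCh38.p14.

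The members, gene lists and rules were chosen with earlier results of these data known. Beyond the members, the rule names SRPRA, SRPRB, cytosolic counterparts and, in each other list, the 2 genes of highest and the 2 of lowest ratio among those reaching 20 CPM. Alternatives were DESeq2 1.42.0 size factors, other totals, upper quartile factors, other filters, a prior count of 2 and removal of a GC spline. The promoter search was added after the values were seen.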

Additional observations from a re-analysis of the deposited data

How the results depend on the processing

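With 1 library per condition no replicate could be left out. No paired analysis was possible because the conditions share only 1 replicate number and no test was made. Of 8 alternatives, filters at 0 and 5 CPM left every member's value as it was, and upper quartile factors and a prior count of 2 kept every direction and count of the members. The summed ratio was computed only under the other scalings. Among the scalings, library totals moved the median of all genes most, by -0.036. Totals without mitochondrial and the 10 most-read genes moved it by -0.032. These shifts are not small beside the members' own ratios. The summed log2 ratio of -0.08 was -0.12 with library totals and -0.12 without mitochondrial and the 10 most-read genes, and 10 members then had ratios above 1 under either, against 17. The median of the Hsp70 and Hsp90 system (0.01) became -0.029 with library totals, -0.026 with those trimmed totals and -0.045 with the GC trend removed, that of the prolyl isomerases (0.02) became -0.013 with library totals and -0.0092 with trimmed totals, and that of members with neither motif (0.03) became -0.0097, -0.0062 and -0.0062 with library totals, trimmed totals and the GC trend removed. With the GC trend removed, an alternative added after seeing the data for pairs, the difference of CALR and CANX turned from -0.08 to 0.015. The median of carriers stayed between -0.23 and -0.15, and the median of all members between -0.05 and -0.01. Intervals below 0 numbered 9 with DESeq2 size factors (HSP90B1 and FKBP2 lost), 13 with the GC trend removed, 14 with trimmed totals and 15 with library totals. Intervals above 0 numbered 2 with the GC trend removed and 0 otherwise. HSPA5, HYOU1, SDF2L1, MANF, UGGT1, CALR, P4HB, PDIA4 and PDIA6 kept intervals below 0 in all 8. The filters and the prior count of 2 could not change an interval, and upper quartile factors hardly moved any. Only DESeq2 size factors, the other totals and removal of the GC trend could have shown a loss. The cause of these shifts was not tested beyond the scaling and the trend themselves. Depth limits the 8 members under 50 CPM, whose intervals reached 0.37 to 0.60 (log2) to either side and held 0 in all 8.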
